A study of Arabidopsis thaliana with 4 samples.

Results

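Messenger RNA was sequenced from seedlings of Arabidopsis thaliana. Of the 1984 genes in the deposited gene table, 54 were at or near 0 in the wild type and higher in the ndx1-4 mutant. The 54 genes were chosen by their measured levels: at most 0.3 FPKM in both Col-0 libraries and at least 1 FPKM in both ndx1-4 libraries. FPKM is the read abundance of a gene scaled to its length and to the amount of sequencing. Because the choice used these same values, the difference between the genotypes is the way the genes were found, and its size is given below as a description. The opposite rule, at least 1 FPKM in both Col-0 libraries and at most 0.3 in both ndx1-4 libraries, found 43 genes, which are used as a comparison set.

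Seedlings were taken at 10 days, with 2 libraries for each genotype. Col-0 is the standard wild-type accession. The ndx1-4 mutant is 1 T-DNA insertion line, WiscDsLox344A04, in the gene NODULIN HOMEOBOX (NDX), so a second change elsewhere in this line and the loss of NDX cannot be told apart. The sources used here do not say how many seedlings were pooled for a library, so the spread between replicates may be partly technical.

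The homeobox protein NDX, found in flowering plants, is known for links to Polycomb repression, to the regulation of the flowering repressor FLC and to heterochromatin. Many plant genes are silent in young vegetative tissue and switched on only in flowers, pollen, seeds or under stress. F-box proteins, a very large family in Arabidopsis, are the subunits that select targets for ubiquitin ligases of the SCF type, and many of the genes are expressed at a low level or in few tissues.

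The labels were checked first with the disrupted gene. NDX (AT4G03090, chromosome 4, 1366053 to 1371557) was at 5.08 and 4.96 FPKM in Col-0 and at 0.98 and 1.00 FPKM in ndx1-4, a difference of -1.60 ± 0.10 (SE) on the log2(FPKM + 1) scale (limma, adjusted p = 4.76e-06). The deposited table holds genes that the authors had already called, with no background set, so the spread of unchanged genes is not measured. Of a list of 12 genes of seed storage proteins and oil bodies, 11 were listed and all 11 were lower in ndx1-4, with sums of 1129.43 and 1173.87 FPKM in Col-0 and 72.08 and 62.2 in ndx1-4. Of 7 floral organ genes, 4 were listed and all 4 were higher, with sums of 2.15 and 2.43 FPKM in Col-0 and 62.0 and 61.06 in ndx1-4, and 1 of them, AP3, belonged to the 54. Of 8 genes of green tissue, 1 was listed, and it was lower. The part of these other genes in the values below was not tested, and a change in the share of a cell type cannot be told apart from a change within cells.

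All 54 genes had low to moderate levels in ndx1-4. Their mean in ndx1-4 ranged from 1.1 to 39.98 FPKM with a median of 2.388, beside a median of 28.105 over all listed genes. Of the 54, 39 had a mean under 5 FPKM, 5 lay from 5 to under 10 and 10 were at 10 or above. In Col-0, 22 were listed at 0 in each library, 13 in 1 library and 19 in neither, and the highest single value was 0.28 FPKM. Summed over the 54 genes, the Col-0 libraries held 3.88 and 3.26 FPKM, whereas the ndx1-4 libraries held 301.18 and 306.56 FPKM.

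**Figure D1:**
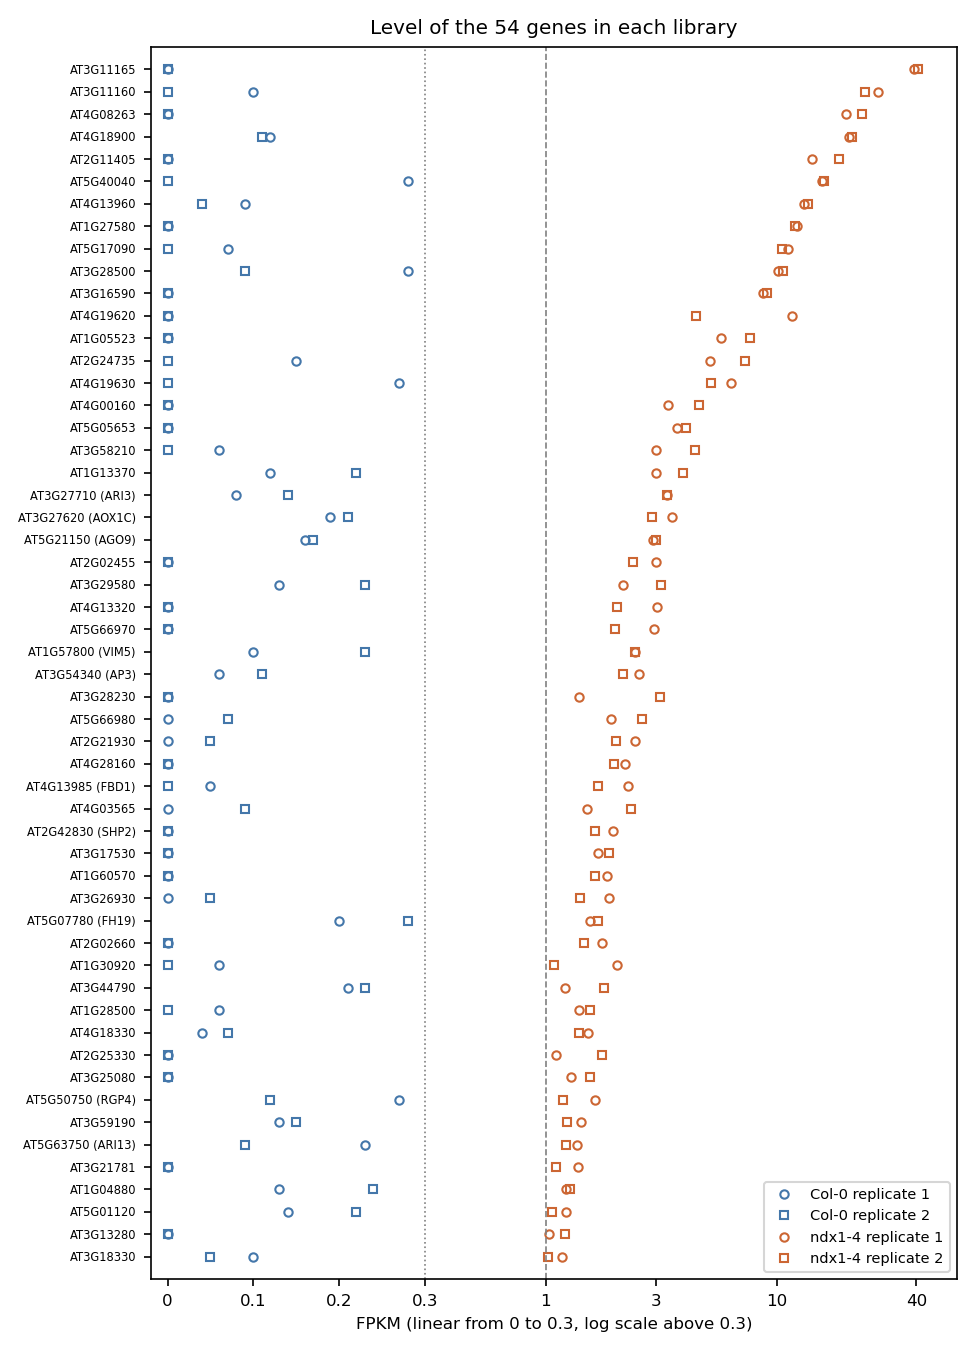
FPKM of each of the 54 genes (rows, ordered by mean in ndx1-4) in the 2 Col-0 and the 2 ndx1-4 libraries, on an axis that is linear up to 0.3 and logarithmic above; the dotted and dashed lines mark the limits of 0.3 and 1 FPKM that chose the genes. All Col-0 values are at 0.28 or below, and the ndx1-4 means run from 1.1 to 39.98.

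The ndx1-4 replicates were close for most of the genes. The median absolute log2 difference between them was 0.241, 5 genes differed at least 1.5-fold and 2 at least 2-fold. The 2 were AT4G19620, at 11.63 and 4.47 FPKM, and AT3G28230, at 1.4 and 3.13 FPKM. Replicate 2 was higher in 28 genes and lower in 25, so neither library was high throughout.

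In the limma fit over all 1984 genes, the differences of the 54 ran from 0.86 to 5.36 on the log2(FPKM + 1) scale with a median of 1.65. This scale understates the change of low genes. Over all listed genes the median difference was -0.20, and over the 864 listed genes that were higher in ndx1-4 it was 0.53. All 54 passed an adjusted p of 0.01, where 98.9% of the listed genes passed in either direction and 43% as higher in ndx1-4. Nothing about the 54 is read from that count, since the same contrast chose them. A ratio of mean FPKM is given only for the 19 genes above 0 in both Col-0 libraries, where it ran from 6.36 to 205.54 with a median of 14.75.

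**Figure D2:**
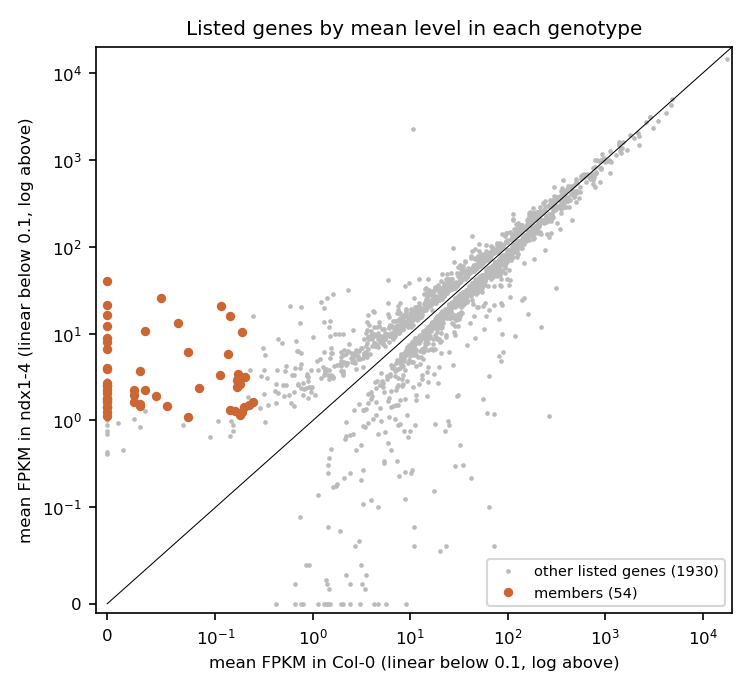
Mean FPKM in Col-0 (horizontal) and in ndx1-4 (vertical) of each listed gene, on axes that are linear below 0.1 and logarithmic above, with the 54 genes in orange, the other 1930 in grey and the line of equal level. The 54 lie at the left edge, and most listed genes lie near the line at higher levels.

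The highest level belonged to a pair of neighbouring genes of unknown function on chromosome 3. AT3G11165 (3497806 to 3499090, minus strand) was listed at 0 in each Col-0 library and was at 39.13 and 40.83 FPKM in ndx1-4, a difference of 5.36 ± 0.09 (SE, log2(FPKM + 1)). AT3G11160 (3496035 to 3497163, minus strand), 642 bases downstream on the same strand, was at 0.1 and 0 FPKM in Col-0 and at 27.36 and 23.91 FPKM in ndx1-4, a difference of 4.66 ± 0.11. The replicates of both genes lay close together in ndx1-4. The space between them holds the transposable element AT3TE14700 of the family TSCL (3497420 to 3497753, minus strand), which was listed at 0 in each Col-0 library and at 1981.8 and 2188.5 FPKM in ndx1-4. Elements and genes were quantified in separate tables, so these levels cannot be set against each other, and reads that run from one gene through the element into the next cannot be told apart from separate transcripts. FAD7 (AT3G11170), the chloroplast fatty acid desaturase gene 446 bases from AT3G11165 on the other strand, was at 106.54 and 108.17 FPKM in Col-0 and at 122.44 and 121.63 FPKM in ndx1-4.

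The 250 bases before each start of this pair (TAIR10.1 assembly, from RefSeq, 5′ to 3′ on the gene's strand) are printed because they carry a shared block. It is the best-scoring match without gaps that a search in the same direction found between them. The block of 31 bases, in capitals, is identical at 29 positions and ends 0 bases before the start of AT3G11160 and 92 bases before that of AT3G11165.
AT3G11160, chr3:3497164-3497413, minus strand: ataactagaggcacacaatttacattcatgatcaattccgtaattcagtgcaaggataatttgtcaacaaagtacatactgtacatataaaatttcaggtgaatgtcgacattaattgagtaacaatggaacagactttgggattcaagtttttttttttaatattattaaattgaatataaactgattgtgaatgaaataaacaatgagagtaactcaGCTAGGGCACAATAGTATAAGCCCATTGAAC
AT3G11165, chr3:3499091-3499340, minus strand: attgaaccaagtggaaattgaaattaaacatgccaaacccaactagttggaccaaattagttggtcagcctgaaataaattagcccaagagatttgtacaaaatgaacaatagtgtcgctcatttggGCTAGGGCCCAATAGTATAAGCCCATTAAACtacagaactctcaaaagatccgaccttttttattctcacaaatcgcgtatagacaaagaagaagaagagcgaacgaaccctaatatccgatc
A shared block is a property of the sequence, and nothing here measures whether it acts in transcription.

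Other genes at 10 FPKM or above had varied products. AT4G08263, annotated as a DNA-binding storekeeper protein-like regulator, was listed at 0 in each Col-0 library and at 19.92 and 23.33 FPKM in ndx1-4 (4.50 ± 0.11). It is 93.4% identical to AT4G00610 over 69.1% of its transcript, so reads could have been shared between copies. AT4G18900, a WD40 repeat protein, was at 0.12 and 0.11 FPKM in Col-0 and at 20.51 and 21.17 FPKM in ndx1-4, a ratio of means of 181.22. Its nearest relative by sequence is AT4G18905, with 79.7% identity over 87.4% of the transcript, which is not among the listed genes. AT2G11405, a gene of 348 bases with no known function on chromosome 2 (4543175 to 4543522), was listed at 0 in each Col-0 library and at 14.12 and 18.52 FPKM in ndx1-4. A LINE-type element, AT2TE18965 of the family ATLINE1_4, lies 2005 bases away and was listed at 0 in each Col-0 library and at 105.4 and 172.6 FPKM in ndx1-4. Within 5 kb of a listed element lay 3 of the 54 genes (5.56%, beside 1.21% of listed genes and 2.33% of the 43 genes silent in ndx1-4). The 3 are AT2G11405 and the pair on chromosome 3, whose genes lie beside the same element, so the share rests on few places. Of the 54, 0 overlapped a listed element.

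A pair of genes of the 60S acidic ribosomal protein family, whose products form the stalk of the large ribosomal subunit, was in the set. AT5G40040 was at 0.28 and 0 FPKM in Col-0 and at 15.68 and 16.0 FPKM in ndx1-4. AT3G28500 was at 0.28 and 0.09 FPKM in Col-0 and at 10.15 and 10.65 FPKM in ndx1-4, a ratio of means of 56.22. Each was the other's nearest relative, with 76.2% identity. A related factor of protein synthesis, AT4G18330 of the EF1A and IF2gamma family, was at 0.04 and 0.07 FPKM in Col-0 and at 1.52 and 1.4 FPKM in ndx1-4.

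Cystatin-like proteins, named for inhibitors of cysteine proteases, gave 2 of the 54 genes. AT5G17090 was at 0.07 and 0 FPKM in Col-0 and at 11.21 and 10.51 FPKM in ndx1-4. AT4G03565 was at 0 and 0.09 FPKM in Col-0 and at 1.51 and 2.34 FPKM in ndx1-4. A further gene of the family, AT1G03710, fell just outside the rule at 0.1 and 0.35 FPKM in Col-0 against 3.25 and 4.39 FPKM in ndx1-4.

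The largest class by product name was that of proteins with an F-box or the associated FBD domain. It held 12 of the 54 genes (22.2%), beside 37 of the 1984 listed genes (1.86%), 684 of 37899 annotated nuclear genes (1.80%) and 0 of the 43 genes silent in ndx1-4. The class was counted among protein-coding genes only, and over the 27444 annotated protein-coding genes its share was 2.49%. Of the 37 listed genes of the class, 31 were higher and 6 lower in ndx1-4, but the rule fixed the direction of 12 of the 31. Outside the 54, the class held 19 of the 810 other genes higher in ndx1-4 (2.35%) and 6 of the 1120 lower (0.54%). Genes of this class are low in general, so listed genes with a mean under 5 FPKM over the 4 libraries were counted too. Among the 258 such genes outside the set, the class made up 5.81%, with 9.03% of the 144 that were higher in ndx1-4 and 1.75% of the 114 that were lower. The share was therefore higher among the 54 than among low genes at large, as a description and with no test.

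**Figure D3:**
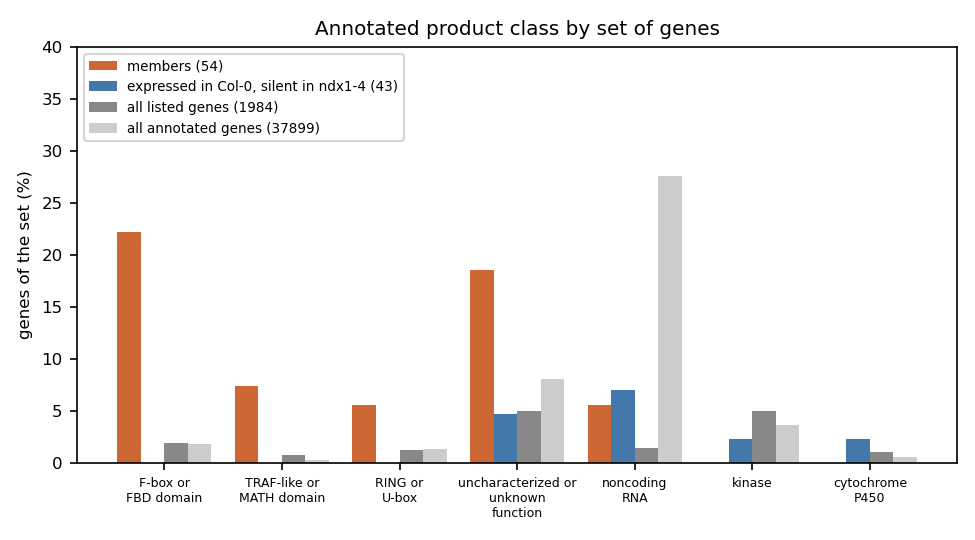
Share of genes (percent) with each annotated product class among the 54 genes, the 43 genes silent in ndx1-4, all listed genes and all annotated nuclear genes. The F-box or FBD class reaches 22.2% in the 54 and 1.86% in the listed genes.

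The mean level of the 12 genes in ndx1-4 ran from 1.1 to 13.36 FPKM, and 5 of them were listed at 0 in each Col-0 library. AT4G13960, with an F-box and leucine-rich repeats, was at 0.09 and 0.04 FPKM in Col-0 and at 13.05 and 13.67 FPKM in ndx1-4. Its ratio of means, 205.54, was the largest among the 19 genes above 0 in both Col-0 libraries. AT4G13960 overlaps a noncoding gene, AT4G06165, on the other strand over 355 bases, where reads cannot be assigned to either gene by position. AT1G27580, with an F-box and a DUF295 domain, was listed at 0 in each Col-0 library and was at 12.2 and 12.02 FPKM in ndx1-4. FBD1 (AT4G13985), 17065 bases from AT4G13960 on chromosome 4, was at 0.05 and 0 FPKM in Col-0 and at 2.27 and 1.69 FPKM in ndx1-4. The replicates of AT4G13960 and AT1G27580 lay close together, and those of FBD1 were further apart. AT1G27580 is 93.2% identical to AT1G27540 over 91.1% of its transcript, so reads could have been shared between copies. AT3G18330, at 1.18 and 1.02 FPKM in ndx1-4, is 92.0% identical to AT2G07130 over 96.0%.

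Other proteins tied to protein turnover were present. Proteins with a TRAF-like or MATH domain, which in plants can serve as substrate adaptors, gave 4 genes (7.41%, beside 0.76% of listed genes), with ndx1-4 means from 1.43 to 3.71 FPKM. Of the 15 listed genes of this class, 10 were higher and 5 lower in ndx1-4. The 10 include the 4 genes that the rule required to be higher, so these counts give no direction of the class. RING or U-box proteins, most of which are ubiquitin ligases, gave 3 genes. The class as listed was split into 13 higher, which include these 3, and 11 lower. ARI3 (AT3G27710), a RING-between-RING ligase, was at 0.08 and 0.14 FPKM in Col-0 and at 3.33 and 3.34 FPKM in ndx1-4. ARI13 (AT5G63750), of the same family, was at 0.23 and 0.09 FPKM in Col-0 and at 1.37 and 1.23 FPKM in ndx1-4. ARI3 is 92.4% identical to AT3G27720 over 56.9% of its transcript, so reads could have been shared between copies. No kinase, disease resistance, cytochrome P450 or transposon gene by product name was in the set. Kinases made up 4.94% of listed genes, disease resistance genes 0.81%, cytochrome P450 genes 1.06% and transposon or reverse transcriptase genes 0.05%. The transposon class had 1 listed gene, AT1G49920 (MuDR family transposase), which was higher in ndx1-4 and fell just outside the rule. It was at 0.11 and 0.19 FPKM in Col-0 and at 0.92 and 0.86 FPKM in ndx1-4. At shares this low, the absence of the disease resistance, cytochrome P450 and transposon classes from a small set tells little. The absence of kinases was not tested.

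VIM5 (AT1G57800), the third RING gene, belongs to the VARIANT IN METHYLATION family, whose members VIM1 to VIM3 maintain CG methylation of DNA. It was at 0.1 and 0.23 FPKM in Col-0 and at 2.43 FPKM in both ndx1-4 libraries. AGO9 (AT5G21150), an Argonaute protein that binds small RNAs and is known from ovules, was at 0.16 and 0.17 FPKM in Col-0 and at 2.91 and 3.01 FPKM in ndx1-4. A gene of the histone superfamily, AT1G13370, was at 0.12 and 0.22 FPKM in Col-0 and at 3.0 and 3.93 FPKM in ndx1-4. These 3 genes were above 0 in both Col-0 libraries.

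Floral organ identity genes gave 2 of the 54. AP3 (AT3G54340), a MADS-box factor of petal and stamen identity, was at 0.06 and 0.11 FPKM in Col-0 and at 2.52 and 2.17 FPKM in ndx1-4. SHP2 (AT2G42830), a MADS-box factor of carpel and fruit development, was listed at 0 in each Col-0 library and at 1.95 and 1.64 FPKM in ndx1-4. SHP2 overlaps a noncoding gene, AT2G42835, on the other strand over 1756 bases, where reads cannot be assigned to either gene by position. SEP1 (AT5G15800), a cofactor of floral organ identity, missed the rule narrowly in 1 Col-0 library, and was at 0.17 and 0.31 FPKM in Col-0 and at 15.72 and 16.25 FPKM in ndx1-4.

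The remaining genes with a symbol were AOX1C, FH19 and RGP4. AOX1C (AT3G27620), an alternative oxidase of the mitochondrial electron transport chain, was at 0.19 and 0.21 FPKM in Col-0 and at 3.51 and 2.89 FPKM in ndx1-4. RGP4 (AT5G50750), of the reversibly glycosylated polypeptide family, was at 0.27 and 0.12 FPKM in Col-0 and at 1.64 and 1.19 FPKM in ndx1-4. FH19 (AT5G07780), a formin that acts on actin filaments, was at 0.2 and 0.28 FPKM in Col-0 and at 1.56 and 1.69 FPKM in ndx1-4. Its neighbour AT5G07770, 47 bases away and 85.5% identical over 64.6% of the transcript, was at 6.45 and 6.55 FPKM in Col-0 and at 11.45 and 13.23 FPKM in ndx1-4. A gene with a symbol in the annotation was rarer here (10 of 54, 18.5%) than among listed genes (56.9%) or among the 43 genes silent in ndx1-4 (60.5%). The share over all annotated genes, 28.7%, was nearer to that of the 54.

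Annotation described the 54 genes further. They had a median gene length of 1422.5 bases, beside 2358 over listed genes, 1619 over the 43 genes silent in ndx1-4 and 1796 over all annotated genes, and 15 of them (27.8%) had 1 exon, beside 14.0% of listed genes, 32.6% of the 43 genes silent in ndx1-4 and 37.7% of all annotated genes. Protein-coding genes were 51 of the 54 (94.4%, beside 98.6% of listed genes and 72.4% of all annotated genes). Products of unknown function were found for 10 (18.5%, beside 4.99% of listed genes and 8.03% of all annotated genes). They were counted among protein-coding genes only, which lowers the share over all annotated genes. Chromosome 3 held 18 of the genes (33.3%, beside 20.2% of listed genes), and chromosomes 1, 2, 4 and 5 held 8, 7, 11 and 10. A related transcript at 80% identity over at least 50% of the length was found for 18 of the genes, and in 2 of them the relative was itself listed. One was FH19. The other, AT1G28500, a DUF626 gene, was at 0.06 and 0 FPKM in Col-0 and at 1.4 and 1.56 FPKM in ndx1-4, while its relative AT1G27860 was at 0.88 and 0.29 FPKM in Col-0 and at 21.98 and 19.92 FPKM in ndx1-4.

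Most of the genes had no other of the 54 nearby. Another of the 54 lay within 10 kb of 6 genes (11.1%). The same share was 9.30% within the 43 genes silent in ndx1-4 and 39.8% within the 1984 listed genes, and it depends on the size of the set. The 6 genes formed 3 pairs: the pair on chromosome 3 above, 1 on chromosome 4 and 1 on chromosome 5. AT4G19620, of unknown function, was listed at 0 in each Col-0 library and at 11.63 and 4.47 FPKM in ndx1-4. AT4G19630, annotated as a winged-helix DNA-binding protein and 1078 bases away on the same strand, was at 0.27 and 0 FPKM in Col-0 and at 6.34 and 5.16 FPKM in ndx1-4. On chromosome 5, AT5G66970 (P-loop NTPase) and AT5G66980 (B3-type transcription factor) face away from each other with 417 bases between them. AT5G66970 was listed at 0 in each Col-0 library and at 2.94 and 1.99 FPKM in ndx1-4, and AT5G66980 was at 0 and 0.07 FPKM in Col-0 and at 1.92 and 2.61 FPKM in ndx1-4. In each of the 3 pairs both genes were low in Col-0, as the rule required.

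The library kit did not mark the strand of a read, so reads in a place where genes overlap on opposite strands cannot be assigned to one of them by position. This touches 9 of the 54 genes (16.7%), beside 23.7% of listed genes. With an overlap of at least 100 bases the shares were 16.7% and 16.0%. SHP2 and AT4G13960, described above, are among the 9. AT3G21781, a noncoding RNA, covers exactly the coordinates of the UDP-glucosyl transferase gene UGT71B6 (AT3G21780, chromosome 3, 7674904 to 7676519) on the other strand. AT3G21781 was listed at 0 in each Col-0 library and at 1.38 and 1.11 FPKM in ndx1-4, while UGT71B6 was at 2.04 and 2.06 FPKM in Col-0 and listed at 0 in both ndx1-4 libraries. The 2 genes exchange their values between genotypes, and from these files the strand of the reads cannot be told apart. The other noncoding RNAs of the set were 2 genes: AT1G05523 was at 5.74 and 7.65 FPKM in ndx1-4 and AT2G24735 at 5.12 and 7.28 FPKM, and each overlaps a gene on the other strand.

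The promoters were searched for a short list of known plant motifs in the 250 bases before the annotated start and on both strands. The telo-box (AAACCCTA) is a short copy of the telomere repeat that occurs upstream of many plant genes of ribosomal proteins and of protein synthesis, and it is bound by telomere repeat binding proteins. It was found before 14 of the 54 genes (25.9%). Before all annotated genes the share was 4.76%, before the 810 other genes higher in ndx1-4 it was 2.96%, before the 1120 genes lower in ndx1-4 it was 1.96%, and before the 43 genes silent in ndx1-4 it was 11.6%. Among the 258 low listed genes outside the set it was 4.26%, a value near that of the genome. Outside the F-box, FBD, TRAF and MATH classes, 8 of 38 genes had a telo-box (21.1%). A wider count of 500 bases gave 29.6% of the 54 and 8.10% of all annotated genes, and a narrower one of 100 bases gave 20.4% and 2.36%.

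**Figure D4:**
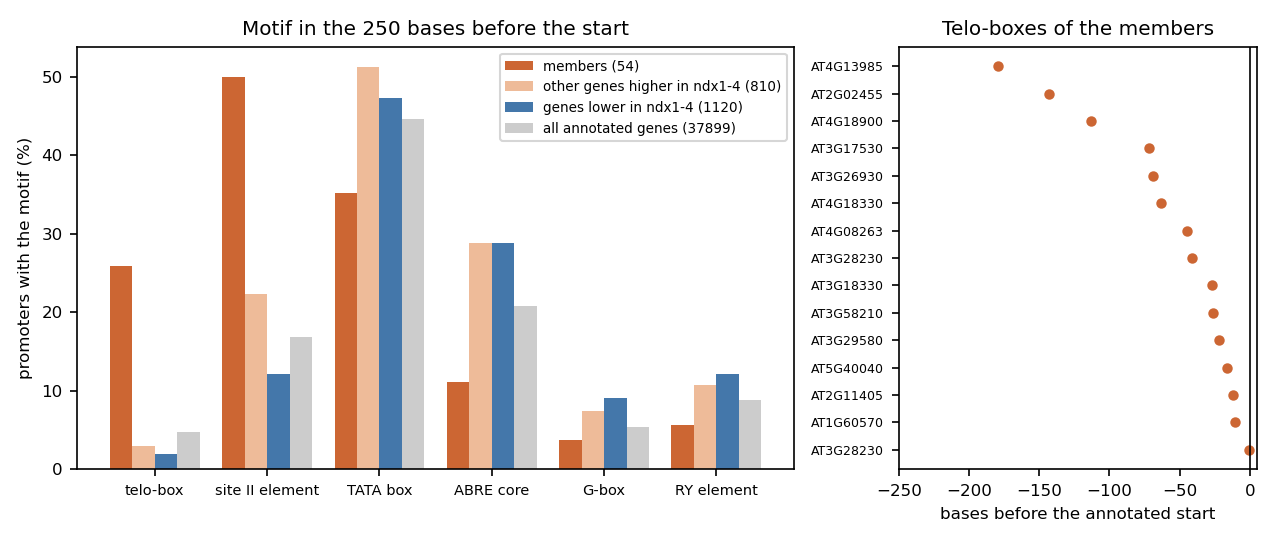
Left, share of promoters (percent) with each motif in the 250 bases before the start, for the 54 genes, the other genes higher in ndx1-4, the genes lower in ndx1-4 and all annotated genes. Right, distance in bases of each of the 15 telo-boxes of the 54 genes from the annotated start, which ran from 1 to 179. The telo-box share is 25.9% in the 54 and 4.76% in all annotated genes.

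The 15 telo-boxes of the 14 genes lay 1 to 179 bases before the start, with a median of 41, and 12 of the 15 lay within 100 bases. Over all annotated genes the median was 103 bases and 48.8% lay within 100. The box was on the gene's own strand in 8 of 15. Of the 10 genes with the highest level in ndx1-4, 4 had one. The level did not separate the genes, with a median of 2.46 FPKM in ndx1-4 for the 14 genes with the box and 2.388 for the 40 without. Windows of 30 bases around the box are printed for these 4 genes and for AT3G29580 and AT3G58210, because both encode TRAF-like or MATH domain proteins. They are from RefSeq (TAIR10.1), 5′ to 3′ on the gene's strand, with the telo-box or its reverse complement in capitals.
AT2G11405, chr2:4543144-4543173, plus strand: aaagacgtttcTAGGGTTTtgaacccaacc
AT3G29580, chr3:11395883-11395912, minus strand: aatttgggttcTAGGGTTTtagttctctcc
AT3G58210, chr3:21564083-21564112, minus strand: cactcaggttcTAGGGTTTcacgctctcta
AT4G08263, chr4:5212172-5212201, minus strand: cttctcataacAAACCCTAaaattctaaaa
AT4G18900, chr4:10356333-10356362, plus strand: ggggatttcgtTAGGGTTTctgtgagctaa
AT5G40040, chr5:16030341-16030370, minus strand: ggtacgtgcaaAAACCCTAatctcccctta
In AT3G29580 and AT3G58210 the box lies 22 and 26 bases before the start, on the strand opposite to the gene. Of the 54 genes, 11 have another annotated gene within these 250 bases, and 2 of the 14 with a telo-box are among them.

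Of the other motifs on the list, each was found in a smaller share of the 54 than of all annotated genes. For the RY element and the G-box this rests on few genes. The RY element (CATGCA), bound by B3 proteins such as VAL1 and ABI3, was found before 3 of the 54 (5.56%, beside 8.84% of all annotated genes and 27.9% of the 43 genes silent in ndx1-4). The ABRE core (ACGTG), an abscisic acid response element, was found before 6 (11.1%, beside 20.8%) and the G-box (CACGTG), which contains the ABRE core, before 2 (3.70%, beside 5.39%). The TATA box (TATAAA) was found before 19 (35.2%, beside 44.6%). Outside the F-box, FBD, TRAF and MATH classes the shares were 7.89% for the RY element and 7.89% for the ABRE core. There the G-box share was 5.26% and the TATA box share 44.7%, both near those of all annotated genes. The site II element (TGGGCC or TGGGCT), another motif of promoters of protein synthesis and cell division genes, was searched after the values were seen. It was found before 27 of the 54, beside 16.8% of all annotated genes and 25.6% of the low listed genes outside the set. Both the telo-box and the site II element were found before 7 (13.0%, beside 1.30%). This joint count is no separate result, since each of the motifs alone was already more frequent in the 54.

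The genes just inside the upper limit of 0.3 FPKM in Col-0 were AT3G28500, FH19 and AT5G40040, each with 0.28 FPKM in 1 Col-0 library. The genes just outside were AT4G19690, the iron transporter IRT1, at 0.31 and 0.12 FPKM in Col-0 against 2.1 and 1.59 FPKM in ndx1-4, then SEP1 and AT1G03710 as given above. At the lower limit of 1 FPKM in ndx1-4, AT3G18330 (1.18 and 1.02), AT3G13280 (1.03 and 1.21) and AT5G01120 (1.22 and 1.07) were the lowest inside. AT1G69630 (0.91 and 1.19), AT2G44590 (0.88 and 1.08) and the transposase gene AT1G49920 (0.92 and 0.86) were the highest outside. In all, 15 listed genes missed the rule by 1 Col-0 library only. They included AT1G64795, of unknown function, which was at 21.22 and 0 FPKM in Col-0 and at 2341.88 and 2261.38 FPKM in ndx1-4.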

How the data were processed

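mRNA-seq of 10-day-old seedlings was analysed, with 2 Col-0 and 2 ndx1-4 libraries grouped by their titles. The deposited tables hold FPKM that the authors made with Salmon from Araport11 transcripts and transposable elements, correcting for GC bias. HISAT2, deepTools, DESeq2 and TAIR10 are named in the submitters' processing notes. The tables also hold the authors' fold changes and p-values, which were not used, and only features they had called. Gene FPKM carry commas as digit separators, which were removed. The tables used here hold FPKM and no read counts, so depth per library is unknown and no counting interval is given, and an FPKM of 0 means only that a gene is listed at 0.

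A variance-trend fit of limma 3.58.1 under R 4.3.3 was made on log2(FPKM + 1) of all 1984 genes and all 4 libraries, with Benjamini-Hochberg adjustment over the table and a threshold of 0.01. The fit was tested on simulated data. The smallest p of an exact permutation test of 2 against 2 libraries is 0.333, so none was used. All 1984 IDs were found in RefSeq (TAIR10.1) with the same chromosome, start and end. Relatives were found with BLAST+ 2.17.0 (E-value up to 1e-10), and motifs with Python 3.11.15 and pandas 2.3.3. Named genes were NDX, the 10 members with the highest mean FPKM in ndx1-4, members within 10 kb of another, members with a symbol, and the 3 genes nearest each limit on either side. Other genes were named as members of a class or as neighbours or relatives, after their values were seen. The members, lists and motifs were chosen with earlier results of these data known. Alternatives were other limits of the rule, another pseudocount, filter, scaling and adjustment, no trend, a replicate block, each library left out, and other distances, overlaps and promoter windows.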

Additional observations from a re-analysis of the deposited data

How the results depend on the processing

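The number of genes meeting the rule depended on its limits. It was 35 with an upper limit of 0.1 FPKM in Col-0, 28 with a lower limit of 2 FPKM in ndx1-4, and from 57 to 64 when 1 library was left out. The median difference of the 54 genes was 4.18 with a pseudocount of 0.1 in place of 1, so its size on the log2 scale rests on the pseudocount, and it ran from 1.62 to 1.69 with 1 library left out. The number of the 54 past the threshold ran from 44 to 54 with 1 library left out, where 1 genotype has a single library whose spread was taken from the other genotype. It was 44 without either Col-0 library. In the same fits 773 to 815 of the 1984 listed genes passed. Members with another member within 100 kb made up 22.2%, in place of 11.1% within 10 kb. The refits of NDX and of the 10 highest genes changed no call, which for the 10 genes is no sign of stability, since these libraries chose them. Telo-box counts with other windows or with the 7-letter core (11, 16 and 17 genes) were chosen after seeing the data.

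The replicate numbers did not pair the libraries, with a correlation of replicate deviations of 0.02. A fit with a replicate block left 54 of the genes and 1958 of all 1984 listed genes past the threshold, with the median difference of the 54 at 1.65. Depth is unknown, so how many reads lie behind a value of 1 FPKM cannot be given.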
